A study of Arabidopsis thaliana with 11 samples.

Results

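The step from day 0 to day 2 of induced flower formation in Arabidopsis thaliana was examined with 5 of the 11 RNA-seq libraries of the series. The day 2 libraries (n = 2, replicates 1 and 2) and the day 0 libraries (n = 3, replicates 1 to 3) were chosen by the day in their labels, and not by any measured value. All came from the inducible line pAP1:AP1-GR ap1-1 cal-1, in which the AP1 promoter drives AP1-GR, a fusion of AP1 with a glucocorticoid receptor domain, and the plant's own AP1 and CAL genes are mutant. The ecotype was Landsberg, and plants grew in long days. Day 2 inflorescences had received daily dexamethasone in a solution with ethanol and Silwet L-77, and day 0 inflorescences were untreated. Of 20971 genes with values, the 18238 with at least 1 FPKM (read fragments corrected for transcript length and for the size of the library) in at least 2 of these 5 libraries were tested.

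AP1 and CAL are related MADS-domain transcription factors that turn newly formed lateral meristems into flowers. Without them the inflorescence keeps making meristems of its own kind, and a dense head of meristems forms. Dexamethasone lets the AP1-GR protein enter the nucleus, after which these meristems start to form flowers more or less together. In the textbook order AP1 and LFY first mark the floral meristem, repressors of flowering are turned down, and organ identity genes follow: class B genes (AP3 and PI) for petals and stamens, the class C gene AG for stamens and carpels, and the SEPALLATA genes (SEP1 to SEP4) as their partners. The comparison of day 2 with day 0 asks which transcripts had changed at the earliest time sampled after the switch.

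The material sets limits on what a change can mean. The fusion protein is made only where the AP1 promoter is active, all plants are of a single transgenic line, and per the study's methods each library pooled 5 main inflorescences. No plants given the solution alone, or left untreated beyond day 0, are among these libraries, so dexamethasone, the other parts of the solution, plant age and stage cannot be told apart. Fewer cells of a type and less RNA per cell cannot be told apart either. AP1 values do not separate the transgene from the mutant gene. Meristem markers were well expressed: the 6 shoot meristem genes summed to 410 and 405 FPKM at day 2, against 364, 379 and 400 FPKM at day 0, whereas the tapetum markers in the table (2 of 6) stayed under 1 FPKM in all 5 libraries. Markers of other cell types differed somewhat between the days without a call. The 9 xylem markers summed to 41.2 and 27.9 FPKM at day 2 and 50.1, 42.5 and 39.1 FPKM at day 0, with all 8 tested below 0 and a median of -0.28, and the 4 phloem markers, all below 0, to 37.8 and 27.3 FPKM at day 2 and 37.2, 39.3 and 36.8 FPKM at day 0. The 2 root markers in the table, of 5, were above 0 and summed to 5.59 and 4.9 FPKM at day 2 and 2.5, 2.28 and 3.09 FPKM at day 0. The part of these cell types in the results was not tested.

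The values had been brought to a common distribution before deposit, with column totals of 734615 to 734624 FPKM, so depth is unknown. The lowest values of a library (0.00182 to 0.00909 FPKM in these 5) are each shared by 663 to 821 genes and are no measured level. Across genes, which are not independent replicates, the day 2 libraries correlated at 0.9832, against 0.9909 to 0.9929 among the day 0 libraries. Day 2 replicate 1 stood apart in ribosomal RNA: the transcripts AT3G41979 and AT2G01020, which had identical values throughout, were at 2970 FPKM in replicate 1 and 233 FPKM in replicate 2. The 4 ribosomal RNA genes, a list made after their values were seen, summed to 15700 and 10200 FPKM in day 2 replicates 1 and 2, against 11300, 10200 and 10200 FPKM at day 0. The part of ribosomal RNA in the other results was not tested.

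Few genes were called at day 2, and more of the calls were rises than falls. Calls required 2-fold or more in FPKM + 1 together with an adjusted p below 0.05, from limma's moderated test on log2(FPKM + 1) and Benjamini-Hochberg adjustment over all genes tested. In this fit, which takes each gene's spread from all 11 libraries, 53 genes rose (0.291%) and 18 fell (0.0987%). The median change over all genes was 0.000968 on the log2 scale. Because the values had been brought to a common distribution before deposit, a shift shared by most genes could not show in this median. A further 104 genes passed the adjusted p but changed by under 2-fold, 50 upwards and 54 downwards, and 2157 genes had an unadjusted p under 0.05.

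The counts moved with the libraries in the fit. When only the 5 libraries of days 0 and 2 were fitted, 98 genes rose (0.537%) and 32 fell (0.175%). These calls held 52 of the 53 and all 18 of the genes above. The libraries of day 8, which enter only the estimate of spread, had a pooled SD of 0.3073 on the log2 scale, against 0.2236 at day 2 and 0.1567 at day 0. A fit without day 2 replicate 1 called 16 rises, 14 of them among the 53, and 3 falls, 1 of them among the 18. A fit without replicate 2 of that day called 35 rises, 20 of them among the 53, and 19 falls, 6 of them among the 18. Fits without day 0 replicate 1, 2 or 3 called 18, 20 or 22 rises, of which 16, 18 and 22 were among the 53, and 5, 3 or 5 falls, of which 3, 3 and 4 were among the 18.

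Agreement of both day 2 libraries was asked without a test: each had to lie at least 2-fold from the day 0 mean in FPKM + 1 and beyond all 3 day 0 libraries. This held for 82 genes upwards (0.45%) and 19 downwards (0.104%), out of 145 and 51 genes whose day 2 mean was 2-fold away. Replicate 1 alone was 2-fold above the day 0 mean for 232 genes and 2-fold below for 131, and replicate 2 alone for 133 and 84. Only 6 genes were 2-fold away in opposite directions. Of the called genes, 46 of the 53 rises and 11 of the 18 falls were 2-fold in both libraries, and the groups did not overlap for any called gene, a pattern that 18.85% of all genes showed upwards and 18.24% downwards. A gene under 1 FPKM in every day 0 library was tested only if both day 2 libraries reached 1 FPKM. Its lack of overlap upwards thus followed from the filter.

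**Figure D1:**
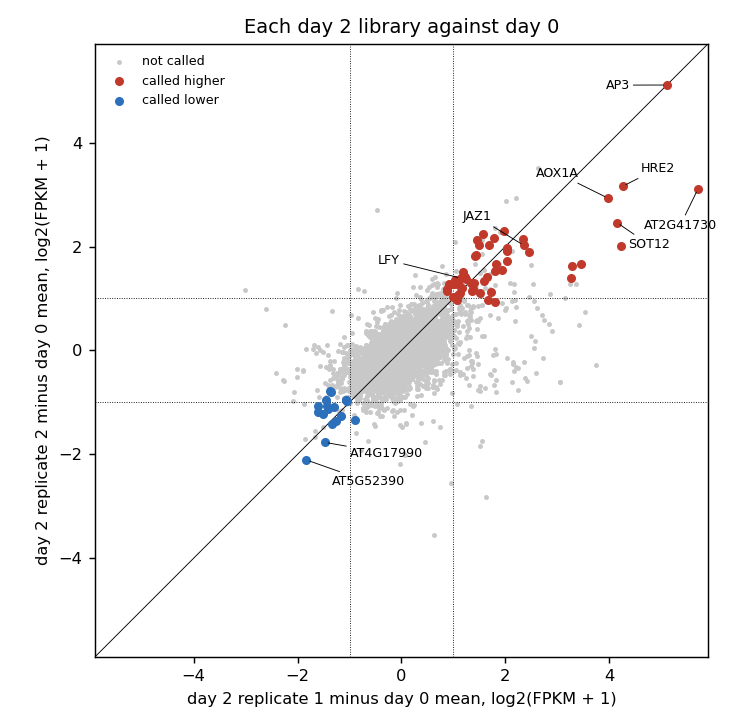
Difference of each day 2 library from the day 0 mean in log2(FPKM + 1), replicate 1 on the x axis and replicate 2 on the y axis, 1 point per tested gene. Dotted lines mark 2-fold, the diagonal marks equal differences, and red and blue points are the 53 genes called higher and the 18 called lower at day 2; AP3 sits on the diagonal at 5.11, and AT2G41730 lies far to its right.

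Among the called genes, 11 rises and 1 fall kept their call whichever of the 5 libraries was left out. The rises were AP3, HRE2, AOX1A, SOT12, MO1, ANAC013, the receptor kinase gene AT1G09970 (alias LRR), SEP3, LFY, AKR4C8 and DWF4, and the fall was AT4G17990. Of these 12 genes, AP3, SEP3 and LFY stand on the lists of floral identity, and AOX1A, ANAC013, SOT12 and HRE2 on the list of mitochondrial stress. DWF4 is on the brassinosteroid list made after its value was seen, and MO1, AT1G09970, AKR4C8 and AT4G17990 are on no list. Day 2 replicate 1 was above replicate 2 in 30 of the 53 rises, and the day 2 libraries were over 2-fold apart in FPKM + 1 for 8 rises and 0 falls.

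The largest change was in a class B gene. AP3, at chr3:20119140-20121314 of the TAIR10.1 assembly, was at 37.6 and 37.7 FPKM in the day 2 libraries, against 0.184, 0.00909 and 0.175 FPKM in the day 0 libraries. The day 2 libraries thus gave nearly the same value, and every day 0 library was near the floor of the table. The log2 change was 5.11 ± 0.13 (SE; limma, Benjamini-Hochberg adjusted p = 5.98e-09), and because the day 0 level is near the floor its size depends on the added 1 FPKM. PI, whose protein pairs with AP3, was already expressed before induction, with means of 35.9 ± 2.22 FPKM at day 2 (SD, n = 2) and 25.1 ± 4.35 FPKM at day 0 (SD, n = 3). It was not called (0.51 ± 0.14, adjusted p = 0.145).

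The class C gene AG and the SEPALLATA genes SEP2 and SEP3 rose at low levels. AG stood at 1.41 and 1.67 FPKM at day 2, against 0.111, 0.0945 and 0.161 FPKM at day 0 (log2 change 1.18 ± 0.17, adjusted p = 0.0174). SEP3 was at 3.67 and 4.50 FPKM at day 2 and at 0.835, 1.11 and 1.13 FPKM at day 0 (1.33 ± 0.13, adjusted p = 0.000927). SEP2 had 9.53 and 12.9 FPKM at day 2 and 1.75, 3.70 and 3.77 FPKM at day 0 (1.62 ± 0.24, adjusted p = 0.0166). In each of these genes both day 2 libraries lay above all day 0 libraries, by at least 2-fold from the mean. SEP1 changed by 0.99 (adjusted p = 0.0176), just under the minimum, and AP2 and SEP4 by 0.71 and 0.50 without a call.

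Of the 11 floral organ identity genes, 9 were tested, 4 rose (AP3, AG, SEP2 and SEP3), against 0.291% of all genes, and 0 fell, with a median change of 0.99 against 0.000968 for all genes. Both day 2 libraries exceeded all day 0 libraries for 8 of the 9, against 18.85% of all genes, the exception being the class C relative SHP1 (0.789 and 0.808 FPKM at day 2 and 1.3, 0.60 and 1.06 FPKM at day 0). AP3 and AG were under 1 FPKM in every day 0 library, so their lack of overlap followed from the filter. All lists used here were chosen with earlier results of these data known, so counts of their members are no separate evidence. SHP2 and STK, which act in ovules and fruits, did not reach the level for a test. Leaving out replicate 1 of day 2 lowered the count of rises to 3, and leaving out its replicate 2 to 2. The call of AG was lost when any of the 5 libraries was left out.

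LFY rose, and the other genes of floral meristem identity were not called. LFY, which acts with UFO to switch on AP3, had 69.2 and 81.8 FPKM at day 2 and 28.0, 31.8 and 32 FPKM at day 0 (1.27 ± 0.11, adjusted p = 0.000464). AP1 reads were at 167 and 191 FPKM at day 2, against 91.1, 93.4 and 101 FPKM at day 0. That difference, 0.90 ± 0.16, passed the adjusted p (0.0278) but not the 2-fold minimum. UFO (18.5 and 22.8 FPKM at day 2, and 19.8, 20.5 and 22 FPKM at day 0) and FUL, a close relative of AP1 (122 and 128 FPKM at day 2, and 120, 124 and 146 FPKM at day 0), overlapped between the days. The mutant CAL gene gave 52.2 and 48.6 FPKM at day 2 and 52.6, 42.4 and 49.0 FPKM at day 0. In all, 1 of the 7 members rose, against 0.291% of all genes.

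**Figure D2:**
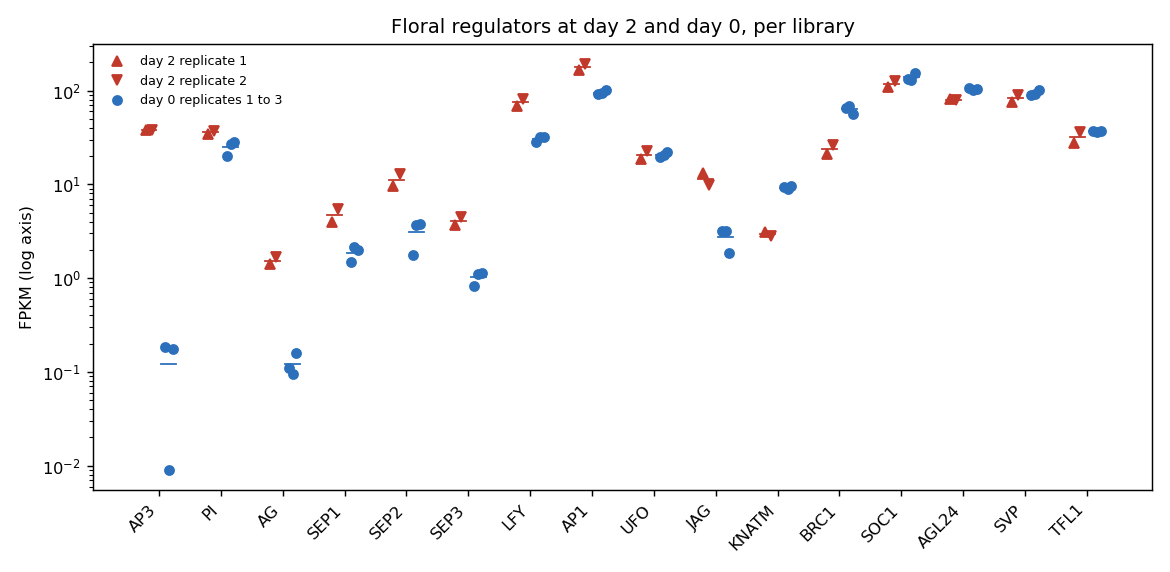
FPKM on a log axis for 16 floral and meristem regulators, with day 2 libraries as red triangles left of the day 0 libraries as blue circles and a short line at each mean. AP3 and AG sit well above their day 0 values, LFY at 69.2 and 81.8 FPKM lies above 28.0 to 32 FPKM, and UFO and SVP overlap between the days.

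Genes of floral transition and inflorescence identity were mostly lower by small amounts, and 0 were called. Among the 20 tested the median change was -0.27, 16 were below 0, and both day 2 libraries lay under all day 0 libraries for 12, against 18.24% of all genes. SPL15 and SPL9, which promote the transition to flowering, passed the adjusted p under 2-fold: SPL15 had 59.4 and 44.3 FPKM at day 2 and 99.5, 90.8 and 86.8 FPKM at day 0 (-0.83, adjusted p = 0.0333), and SPL9 changed by -0.53 (adjusted p = 0.036). The MADS genes AGL24, SOC1 and SVP, direct targets of AP1 repression in the literature, were at -0.38, -0.25 and -0.19 with adjusted p of 0.466, 0.58 and 0.555. AGL24 had 81.7 and 78.7 FPKM at day 2 and 107, 102 and 105 FPKM at day 0. When only the 5 libraries were fitted, AGL24 passed the adjusted p under 2-fold (0.0308), and SOC1 and SVP did not (0.248 and 0.358). TFL1, which keeps the inflorescence meristem from becoming a flower, had 27.8 and 35.9 FPKM at day 2 and 37.4, 36.1 and 37.4 FPKM at day 0, a gap carried mainly by replicate 1. Outside this list MAF4, a relative of the flowering repressor FLC, fell to 2.99 and 3.86 FPKM at day 2, against 10.3, 10.3 and 8.38 FPKM at day 0 (-1.27 ± 0.23, adjusted p = 0.0311).

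Shoot meristem genes were mostly level. Of 14 shoot meristem genes 0 rose and 1 fell, against 0.0987% of all genes, and the median change was -0.02. STM, which maintains meristem cells, was at 137 and 137 FPKM at day 2 and 124, 134 and 145 FPKM at day 0, and the stem cell signal CLV3 was at 2.45 and 3.27 FPKM at day 2 and 2.79, 3 and 2.80 FPKM at day 0. The fall was KNATM, a KNOX-type gene without a homeodomain, which had 3.08 and 2.84 FPKM at day 2 and 9.29, 8.88 and 9.55 FPKM at day 0 (-1.37 ± 0.24, adjusted p = 0.0268). Its groups were far apart, but its call was lost in each of the 5 fits that left out a compared library. Of 9 organ boundary and 15 organ polarity genes 0 were called, with medians of -0.08 and 0.01.

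Organ growth genes were slightly higher as a group. JAG, a zinc finger factor that drives growth of lateral organs, rose to 13.1 and 9.79 FPKM at day 2, against 3.20, 3.22 and 1.85 FPKM at day 0 (1.74 ± 0.24, adjusted p = 0.0118). It was the 1 call among 13 tested members, against 0.291% of all genes, and it was lost without day 2 replicate 1. The median change was 0.33, and for 12 of the 13 both day 2 libraries exceeded all day 0 libraries, against 18.85% of all genes. AIL6 and GRF2, which promote organ growth, passed the adjusted p under 2-fold (0.53, adjusted p = 0.0333, and 0.51, adjusted p = 0.0258). AIL7 was the only member below 0 (-0.29), with 42.7 and 29.1 FPKM at day 2 and 42.8, 41.9 and 45 FPKM at day 0.

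Mitotic genes were also higher by a little, and replication genes were not. Of 19 mitosis genes 0 were called, yet all 19 changes were above 0, with a median of 0.21, and for 14 the day 2 libraries exceeded all day 0 libraries, against 18.85% of all genes. The largest changes were in CDC20.2 (0.75) and CDC20.1 (0.71), activators of the complex that ends mitosis, with 153 and 168 FPKM at day 2 and 102, 95.4 and 87.6 FPKM at day 0 for CDC20.2. Of 16 DNA replication genes 0 were called, and their changes ran between -0.15 and 0.09.

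The repressor of branching BRC1 fell. BRC1, a TCP factor that holds axillary buds back, had 21.3 and 26.5 FPKM at day 2 and 64.9, 68.4 and 56.8 FPKM at day 0, with no overlap (-1.37 ± 0.22, adjusted p = 0.0228). The homeobox genes HB21, HB40 and HB53, which BRC1 activates in buds, were not called (0.07, 0.32 and -0.11). The dormancy marker DRM1 gave 27.5 and 67.1 FPKM at day 2 and 105, 129 and 120 FPKM at day 0 without a call (-1.43 ± 0.56, adjusted p = 0.323). Across the 8 tested bud dormancy genes the median was -0.39, and 1 fell, against 0.0987% of all genes. The call of BRC1 was lost in each fit without 1 of the 5 libraries.

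Among the lists, the one for mitochondrial stress held the most called rises. When mitochondria are disturbed, plants raise nuclear genes such as AOX1A, which codes for the alternative oxidase that lets electrons bypass part of the respiratory chain. The NAC factors ANAC013 and ANAC017 carry this signal: they are held in the endoplasmic reticulum membrane, are released under stress, and bind a short promoter sequence called the mitochondrial dysfunction motif. Of 16 genes on this list 14 were tested. Of these 7 rose, against 0.291% of all genes, and 0 fell. The median change was 1.90 against 0.000968 for all genes, and 10 were 2-fold higher in both day 2 libraries, against 0.45% of all genes. For 12 of the 14 the groups did not overlap, against 18.85% of all genes. HRE2, AT2G41730, AT5G09570 and AT5G51440 were under 1 FPKM in every day 0 library, so their lack of overlap followed from the filter. The list was chosen with earlier results of these data known, so these counts are no separate evidence.

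The motif was searched in promoters read from the TAIR10.1 assembly (RefSeq), taken as 250 bases before to 50 bases after the annotated gene start of the 18163 tested genes with a nuclear promoter. It consists of CTTG and, 5 bases later, CAAG or CACG, and was sought on both strands. It was present in 177 promoters (0.975%), in 12 of the 53 genes that rose (22.6%), in 0 of the 18 that fell and in 9 of the 14 list members (64.3%). The matches of the 12 genes that rose are shown because they are what these genes share beyond their change, each as 29 bases on the strand of the gene, with the match in capitals and its distance from the gene start in bases. Where capitals begin with CGTG, the match is on the other strand.
AOX1A, at -3, chr3:7906510-7906538, plus strand: atctagctCTTGGCGACCACGcaagtatc
AOX1A, at 25, chr3:7906537-7906565, plus strand: tcttccatCTTGCTCTCCAAGaaaaatct
SOT12, at 7, chr2:1150637-1150665, minus strand: atattctaCGTGCTCTTCAAGtaaaggat
AT2G41730, at -9, chr2:17409353-17409381, plus strand: attaatatCTTGCTGGACAAGcatttttg
AT5G24640, at -80, chr5:8436264-8436292, plus strand: attaatttCTTGGTGGACAAGcatgtttg
AT5G51440, at -110, chr5:20891045-20891073, plus strand: ttattttaCTTGGAGACCACGcagttcta
AT2G21640, at -51, chr2:9254319-9254347, plus strand: tttagtaaCTTGCTCTCCAAGgagatcta
AT4G12735, at -181, chr4:7494395-7494423, minus strand: caaaagtcCTTGAACTTCACGtacgaaga
AT4G12735, at -109, chr4:7494323-7494351, minus strand: ttattaagCTTGGCCGCCAAGttataatg
AT2G04050, at -215, chr2:1339663-1339691, minus strand: tattagaaCTTGATTCCCAAGtaatcttt
AT2G04050, at -156, chr2:1339604-1339632, minus strand: tatacgaaCTTGGTCCCCAAGtatatttc
AT2G03130, at -33, chr2:940566-940594, plus strand: aattattgCTTGGAGAGCAAGttgtgtgt
AT2G35480, at -26, chr2:14910309-14910337, plus strand: aataaaatCTTGACGAACAAGtaaaatgg
ABCB11, at -87, chr1:523441-523469, plus strand: ccactctcCTTGCTTCTCAAGcaattatc
AT4G22505, at -151, chr4:11853149-11853177, minus strand: tcaaaagaCTTGACGATCAAGgttattac

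Of these 12 genes, 5 were on the list and 7 were not. Around the match AT2G41730 and AT5G24640 had 55 of 61 bases in common. The list was drawn from published work on this response, in which the motif was described. It was also chosen with earlier results of these data known, so its own share of matches is no separate evidence. Of the 168 genes with the motif outside the list, these 7 were called higher, against 0.291% of all genes. The median change of the 168 was 0.02, and 88 of them were above 0. The match is a description of letters in a window and not a bound site. Of 4 other patterns searched on both strands, the CArG box, which MADS-domain factors bind, was in 1 of the 53 promoters and 3.28% of all, the evening element AAATATCT in 3 (5.85% of all), the DRE core CCGAC in 7 (16.5% of all) and the G-box CACGTG in 5 (8.88% of all).

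AOX1A rose to 35.9 and 16.7 FPKM at day 2, against 0.935, 1.2 and 1.97 FPKM at day 0 (3.46 ± 0.32, adjusted p = 0.000783). ANAC013 was at 46.6 and 37.4 FPKM at day 2 and at 11, 10.5 and 10.3 FPKM at day 0 (1.88 ± 0.11, adjusted p = 3.23e-05), the lowest adjusted p after AP3. Both day 2 libraries were 2-fold above the day 0 mean in each. ANAC017, which is controlled mainly after transcription, had 33.6 and 39.7 FPKM at day 2 and 31, 34.3 and 34.8 FPKM at day 0 and was not called (0.13, adjusted p = 0.664).

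Further members rose more strongly in day 2 replicate 1. SOT12, a sulfotransferase gene, had 86.5 and 26.1 FPKM at day 2 and 3.74, 3.54 and 4.54 FPKM at day 0 (3.31 ± 0.36, adjusted p = 0.00268). AT2G41730, of unknown function, had 68.4 and 10.4 FPKM at day 2 and 0.161, 0.443 and 0.377 FPKM at day 0 (4.41 ± 0.64, adjusted p = 0.0158, and 0.0658 without day 2 replicate 1). HRE2, an ERF factor that also stands on the hypoxia list, had 31 and 13.9 FPKM at day 2 and 0.666, 0.443 and 0.924 FPKM at day 0 (3.71 ± 0.40, adjusted p = 0.00268). Even the lower day 2 library was far above every day 0 library in all 3 genes. AT5G51440, a small heat shock chaperone gene, rose with 13.7 and 3.61 FPKM at day 2 and 0.581, 0.676 and 0.265 FPKM at day 0 (2.46 ± 0.44, adjusted p = 0.032), as did AT2G21640, an oxidative stress marker (1.43 ± 0.28, adjusted p = 0.043).

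The remaining members were less even. UGT74E2, ABCB4 and AT5G09570 were 2-fold higher in both day 2 libraries without a call (2.07, 1.91 and 1.84, with adjusted p of 0.0716, 0.069 and 0.0543). OM66 was at 13.4 FPKM in day 2 replicate 1 and 1.54 FPKM in replicate 2, against 1.02, 0.744 and 1.09 FPKM at day 0. Replicate 1 exceeded replicate 2 in 12 of the 14 members, with median changes of 2.72 in replicate 1 and 1.44 in replicate 2, and the same library held the ribosomal RNA excess given above. The count of 7 rises was 4 without day 2 replicate 1 and 8 without replicate 2. Without day 0 replicate 1, 2 or 3 it was 4 each time. AOX1D and CYP81D8 reached 1 FPKM in replicate 1 only and were not tested: AOX1D had 2.17 and 0.36 FPKM at day 2 and 0.00909, 0.00909 and 0.0791 FPKM at day 0, and CYP81D8 had 5.95 and 0.968 FPKM at day 2 and 0.251, 0.195 and 0.198 FPKM at day 0.

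Genes of chemical detoxification were higher by less. Of 10 tested genes for glutathione transferases, cytochromes P450 and relatives on that list 0 were called, all 10 were above 0, the median was 0.65, and 8 had no overlap, against 18.85% of all genes. GSTU25 and CYP81D11 were under 1 FPKM in every day 0 library, so their lack of overlap followed from the filter. Outside the lists, GSTU7 (22.5 and 22.3 FPKM at day 2 and 9.38, 10.1 and 9.83 FPKM at day 0), the MATE transporter gene AT2G04050 (10.2 and 2.08 FPKM at day 2 and 0.184, 0.132 and 0.185 FPKM at day 0) and the monooxygenase gene MO1 rose. MO1 was at 17.4 and 15.9 FPKM at day 2 and at 3.14, 3.02 and 4.50 FPKM at day 0 (1.97 ± 0.15, adjusted p = 0.000329). Of 13 tested hypoxia genes 1 rose, HRE2 itself, against 0.291% of all genes, and the median was -0.17. The groups did not overlap for 3 upwards, HRE2 among them, against 18.85% of all genes, and for 6 downwards, against 18.24%. The haemoglobin gene HB1 had 5.67 and 4.04 FPKM at day 2 and 2.02, 1.82 and 1.48 FPKM at day 0 without a call (1.07, adjusted p = 0.108), and the alcohol dehydrogenase gene ADH1 averaged 16.0 ± 2.24 FPKM at day 2 (SD, n = 2) and 23.3 ± 2.54 FPKM at day 0 (SD, n = 3).

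**Figure D3:**
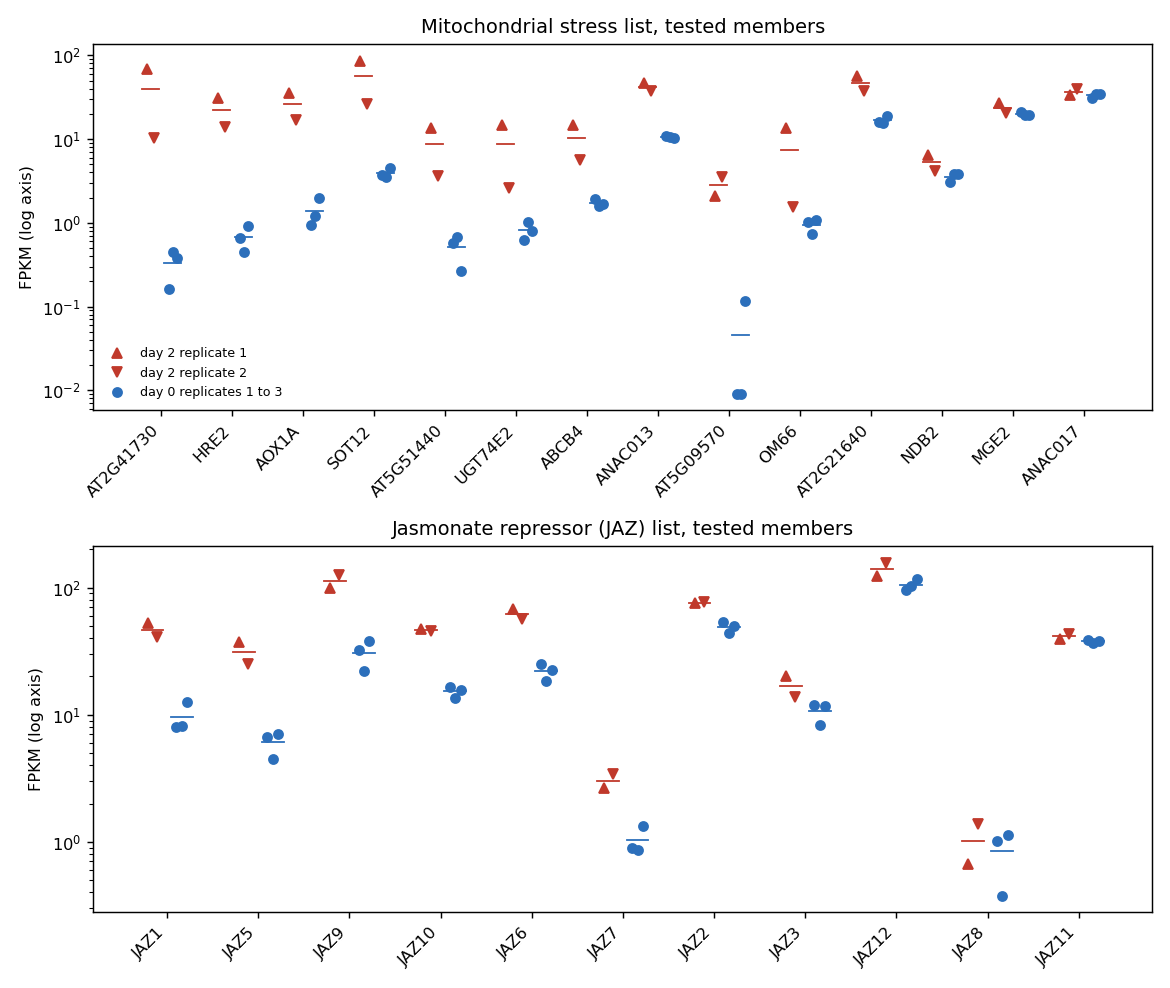
FPKM on a log axis for the 14 tested mitochondrial stress genes (top) and the 11 tested JAZ genes (bottom), with day 2 replicate 1 (red triangle, point up) and replicate 2 (point down) left of the 3 day 0 libraries (blue circles) and lines at the means. In the top panel replicate 1 is above replicate 2 in 12 of 14 genes; in the bottom panel the red points lie above all blue ones in 10 of 11 genes.

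Repressors of jasmonate signalling held 4 further rises. Jasmonate is a hormone of wounding, defence and stamen development: its active form lets the receptor COI1 mark JAZ repressors for destruction, which frees MYC factors, and these raise many genes including those for the JAZ proteins themselves. Of 11 tested JAZ genes 4 rose, against 0.291% of all genes, and 0 fell, and the median change was 0.99. The groups did not overlap for 10, against 18.85% of all genes. Like the other lists, this one was chosen with earlier results of these data known, so its counts are no separate evidence. JAZ1 had 52.3 and 41.0 FPKM at day 2 and 8.06, 8.19 and 12.5 FPKM at day 0 (2.19 ± 0.37, adjusted p = 0.0258). JAZ9 had 99.3 and 125 FPKM at day 2 and 32.1, 22 and 38.0 FPKM at day 0 (1.86 ± 0.32, adjusted p = 0.0258). JAZ5 and JAZ6 rose by 2.18 and 1.46 (adjusted p of 0.0468 and 0.032), and JAZ10, with 47.6 and 45.9 FPKM at day 2 and 16.6, 13.6 and 15.6 FPKM at day 0, was 2-fold higher in both libraries without a call (adjusted p = 0.0673).

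The day 2 libraries agreed on the JAZ genes, with medians of 0.87 in replicate 1 and 1.12 in replicate 2, and replicate 1 was the higher in 5 of 11. The calls rested on the number of libraries: 0 of 11 were called in any fit that left out 1 of the 5, against 5 when only the 5 libraries were fitted. The G-box CACGTG, a letter pattern that MYC factors can bind, stood in the promoters of 4 of the 11 JAZ genes (36.4%), against 8.88% of all genes. These were JAZ2, JAZ3, JAZ7 and JAZ8, none of which was called. The called genes JAZ1, JAZ5, JAZ6 and JAZ9 had no match in the window searched. The G-box was in 33.3% of the photosynthesis promoters too, a group with lower values at day 2.

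Genes that make jasmonate were higher by less. Of 13 tested genes of synthesis, perception and breakdown 0 were called, 12 were above 0, and the median was 0.72. The day 2 libraries lay above all day 0 libraries for 11, against 18.85% of all genes. LOX4 was under 1 FPKM in every day 0 library, so its lack of overlap followed from the filter. AOS, an early enzyme of the pathway, had 33.3 and 20.4 FPKM at day 2 and 10.5, 10.2 and 11.1 FPKM at day 0 (1.22 ± 0.28, adjusted p = 0.078), and OPR3, a later one, had 63.4 and 63.4 FPKM at day 2 and 35.1, 35.9 and 43.4 FPKM at day 0 (0.72 ± 0.21, adjusted p = 0.163). The storage protein gene VSP1, a classical jasmonate output, had 1410 and 1650 FPKM at day 2 and 623, 741 and 1110 FPKM at day 0. COI1 was level, at 17.5 and 15.5 FPKM at day 2 and 16.4, 16.3 and 15.4 FPKM at day 0. ILL6, whose product splits amino acid conjugates of jasmonate, rose to 8.20 and 7.07 FPKM at day 2, against 0.986, 0.376 and 1.18 FPKM at day 0 (2.25 ± 0.39, adjusted p = 0.0268).

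Several defence genes known to respond to jasmonate were 2-fold higher in both day 2 libraries without a call. They were picked here after their values had been seen, from 36 genes that met the agreement rule upwards without a call, 31 of which were called when only the 5 libraries were fitted. The lectin gene JAL23 had 165 and 217 FPKM at day 2 and 51.5, 31.7 and 51.4 FPKM at day 0, and JR1, another lectin gene, had 77.4 and 115 FPKM at day 2 and 24.7, 16.6 and 24.2 FPKM at day 0. The myrosinase-binding genes MBP1 (34.4 and 57.7 FPKM at day 2, and 8.52, 3.83 and 8.84 FPKM at day 0) and MBP2 (16.6 and 31 FPKM at day 2, and 3.25, 2.37 and 4.86 FPKM at day 0) were alike in this. The beta-glucosidase gene BGLU18 stood at 253 and 314 FPKM at day 2 and at 93.0, 66.4 and 103 FPKM at day 0. In each of these genes day 0 replicate 2 was the lowest of the 5 libraries, and replicate 2 was the higher of the day 2 libraries.

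Brassinosteroid enzymes were a smaller group, listed after their values were seen. Of 8 tested genes of the pathway 3 rose, against 0.291% of all genes: DWF4, the rate-limiting step, with 22.9 and 22.6 FPKM at day 2 and 9.49, 10.4 and 10.9 FPKM at day 0 (1.08 ± 0.10, adjusted p = 0.000682), BR6OX2, which makes the active hormone, with 20.3 and 17.5 FPKM at day 2 and 6.91, 6.35 and 8.33 FPKM at day 0, and ROT3. DWF4 kept its call whichever of the 5 libraries was left out, and BR6OX2 and ROT3 lost theirs in each of those fits. The median of the 8 was 0.33. Of other hormone lists, 16 auxin, 12 gibberellin and 8 cytokinin response genes held 0 calls each, with medians of 0.13, -0.11 and -0.29. GH3.17, for an enzyme that conjugates auxin, rose (24.7 and 29.7 FPKM at day 2, and 10.2, 12.4 and 12.8 FPKM at day 0), and its relative GH3.9 fell (2.21 and 3.17 FPKM at day 2, and 7.71, 7.24 and 8.26 FPKM at day 0).

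Photosynthesis genes were lower throughout. All 33 genes on the list, which code for antenna proteins, photosystem subunits and Rubisco, were below 0, with a median of -0.66, and for 30 the groups did not overlap, against 18.24% of all genes. Called falls were 3, against 0.0987% of all genes, and all were antenna genes. LHCB2.2 had 118 and 136 FPKM at day 2 and 308, 295 and 269 FPKM at day 0 (-1.19 ± 0.14, adjusted p = 0.00516). LHCB2.3 had 20.3 and 30.1 FPKM at day 2 and 60.7, 64.4 and 67.4 FPKM at day 0, and LHCB4.2 had 43.9 and 65.1 FPKM at day 2 and 105, 123 and 116 FPKM at day 0. The antenna gene LHB1B2, outside the list, fell too (327 and 460 FPKM at day 2, and 897, 934 and 853 FPKM at day 0), as did PORA, for an enzyme of chlorophyll synthesis (0.945 and 1.04 FPKM at day 2, and 3.18, 3.02 and 2.83 FPKM at day 0). Replicate 1 was lower than replicate 2 in 32 of the 33, with medians of -0.85 and -0.50, and the list held 0 falls without day 2 replicate 1, 4 without replicate 2 and 1 when any single day 0 library was left out.

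Some of these values may share reads with other genes. LHCB2.2 had 40.4% of its exonic words of 31 bases in common with LHCB2.1, which itself changed by -0.92, and LHB1B2 had 26.0% in common with LHB1B1. With genes on the opposite strand, LHB1B2 had 100% in common (AT2G08665), AT4G22505 90.6%, AT4G38540 73.5% and GSTU7 60.3%. The library kit keeps strand, but the strand setting of the counting is not given in the sources used here. AT1G69572 and AT3G21755, 2 non-coding RNA genes that fell, lay opposite AT1G69570 and HYR1 with overlaps of 1241 and 1698 bases. The partners changed by -0.27 and 0.37 and were not called.

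The fall that held whichever of the 5 libraries was left out was AT4G17990, a gene with no description in the table, at 10.5 and 8.37 FPKM at day 2 and 33.7, 30.5 and 29.0 FPKM at day 0 (-1.63 ± 0.13, adjusted p = 0.000373). AT5G52390, annotated as a PAR1 protein, had the largest fall, with 1.55 and 1.11 FPKM at day 2 and 5.04, 9.69 and 10.7 FPKM at day 0 (-1.97 ± 0.25, adjusted p = 0.00746). AT2G37130, a peroxidase gene, had 0.23 and 0.146 FPKM at day 2 and 2.2, 1.97 and 1.68 FPKM at day 0 (-1.31 ± 0.19, adjusted p = 0.0175). Other falls included the annexin gene ANNAT1, the B-box gene BBX15 and the glucosinolate-related gene ESM1, with changes of -1.12, -1.08 and -1.02. None of these 3 was 2-fold lower in both libraries. A further 8 genes were 2-fold lower in both without a call, and 7 of them were called when only the 5 libraries were fitted. They were PIF4, ERD5, MIOX4, AT5G19120, AT4G32480, AT2G20670 and the small nucleolar RNA genes AT4G39363 and AT4G13245.

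**Figure D4:**
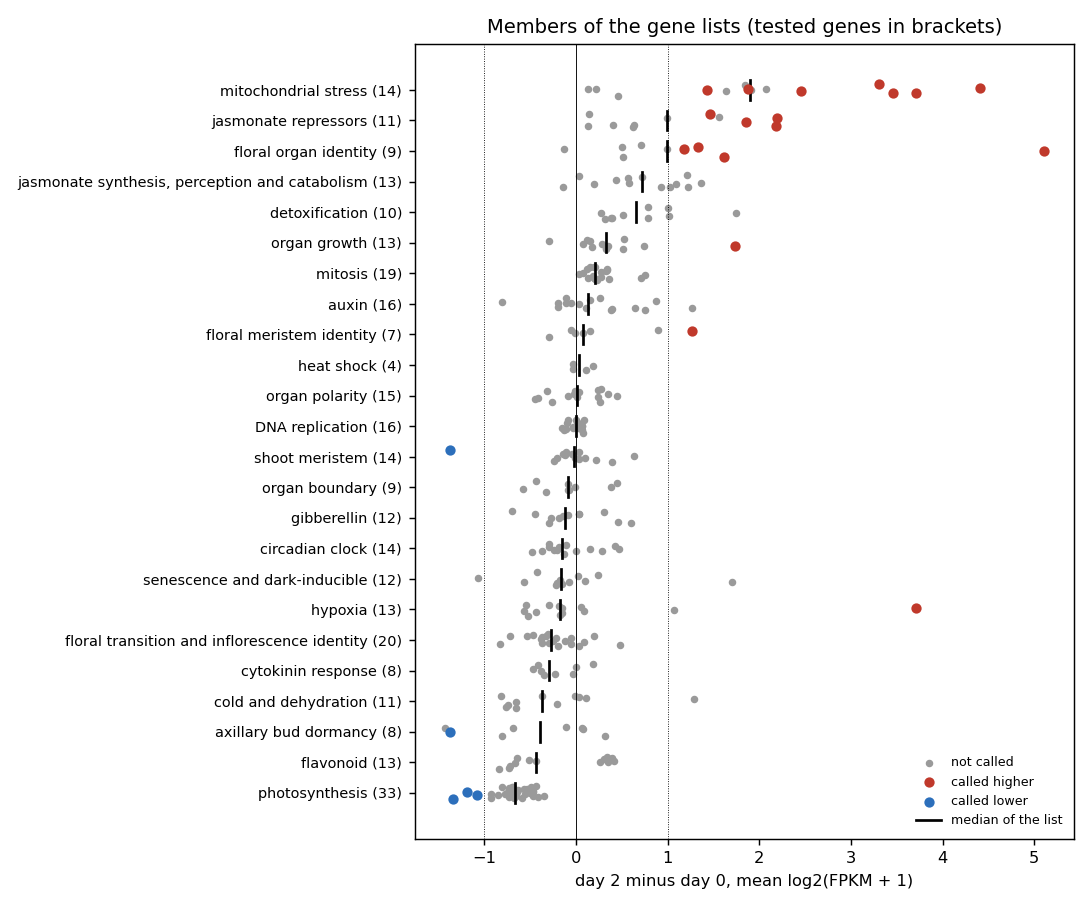
Log2 change from day 0 to day 2 (x axis) of every tested member of the 24 gene lists (rows, with the number tested), members called higher in red, called lower in blue, the rest in grey, and a black bar at each median. Mitochondrial stress has the highest median at 1.90 and photosynthesis the lowest at -0.66, and dotted lines mark 2-fold.

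Lists with 0 calls could still differ between the day 2 libraries. Flavonoid genes had medians of 0.08 in replicate 1 and -0.85 in replicate 2, and cold and dehydration genes 0.11 and -0.98, so that their pooled medians of -0.43 and -0.37 describe neither library. Replicate 1 exceeded replicate 2 in all 13 tested flavonoid genes and in 10 of 11 cold and dehydration genes. The 14 circadian clock genes had a median of -0.16, with -0.22 and -0.16 in the replicates. Their groups did not overlap for 8 downwards, against 18.24% of all genes, and for 3 upwards, against 18.85%. Per the methods all material was collected at the same hour of the light period, and the part of time of day was not tested. The 12 senescence genes had medians of -0.36 in replicate 1 and 0.01 in replicate 2, and 0 were called.

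Among genes with a 2-fold mean difference, the 5 with the widest gap between the day 2 libraries in each direction were not called. Besides the ribosomal RNA genes named above, replicate 1 was the higher in AT2G01010 (27.7 and 2.52 FPKM in day 2 replicates 1 and 2, and 2.23 to 6.44 FPKM at day 0), in AT2G15292 (46.3 and 1.6 FPKM, and 18.7 to 46.1 FPKM at day 0) and in the small nucleolar RNA gene U3D (79.4 and 3.92 FPKM, and 3.09 to 9.53 FPKM at day 0). It was the lower in AT2G24592 (0.00636 and 8.1 FPKM), AT3G15450 (48.8 and 197 FPKM), AT4G27450 (6.48 and 22.8 FPKM), AT5G21940 (9.2 and 31.6 FPKM) and AT3G16670 (5.87 and 21.5 FPKM). Among rises outside the lists with close day 2 libraries, AT5G22430 had 13.7 and 17.3 FPKM at day 2 and 1.52, 3.18 and 3.94 FPKM at day 0 (2.14 ± 0.28, adjusted p = 0.0103), and the trehalose-6-phosphate phosphatase gene TPPJ had 76.0 and 82.8 FPKM at day 2 and 30.3, 31.6 and 32.5 FPKM at day 0 (1.31 ± 0.19, adjusted p = 0.0158).

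Most genes that rose by day 2 stood higher still on the later days. These comparisons share the day 0 libraries, so the values are given side by side and not as separate evidence. Medians of the 53 genes relative to day 0 were 1.53 at day 2, 2.33 at day 4 and 4.15 at day 8 in log2(FPKM + 1). At day 4, 40 of the 53 were above their day 2 mean, 13 lay between day 0 and day 2, and 0 were under day 0. AP3 averaged 0.122 FPKM at day 0, 37.7 FPKM at day 2, 176 FPKM at day 4 and 164 FPKM at day 8, and the day 4 means of SEP3 and AG were 26.4 and 13.8 FPKM.

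The stress and jasmonate groups parted after day 2. Day 4 means exceeded day 2 means in 13 of the 14 mitochondrial stress genes and in 0 of the 11 JAZ genes. AOX1A averaged 26.3 FPKM at day 2, 67.8 FPKM at day 4 and 123 FPKM at day 8. JAZ1 averaged 46.7 FPKM at day 2, 25.9 FPKM at day 4 and 720 FPKM at day 8, with 9.58 FPKM at day 0, and 10 of the 11 JAZ genes were above their day 2 mean at day 8. Photosynthesis genes were above their day 2 mean at day 4 in 32 of 33 cases.

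Genes that fell stayed low more often than not. Their medians were -1.23 at day 2, -1.02 at day 4 and -1.25 at day 8, with 7 of the 18 under their day 2 mean at day 4 and 11 between day 2 and day 0. AT4G17990 averaged 4.06 FPKM at day 4 and 0.0633 FPKM at day 8. BRC1 was at 21.9 FPKM at day 4 and 71.0 FPKM at day 8, so that it ended above its day 0 mean of 63.4 FPKM.

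**Figure D5:**
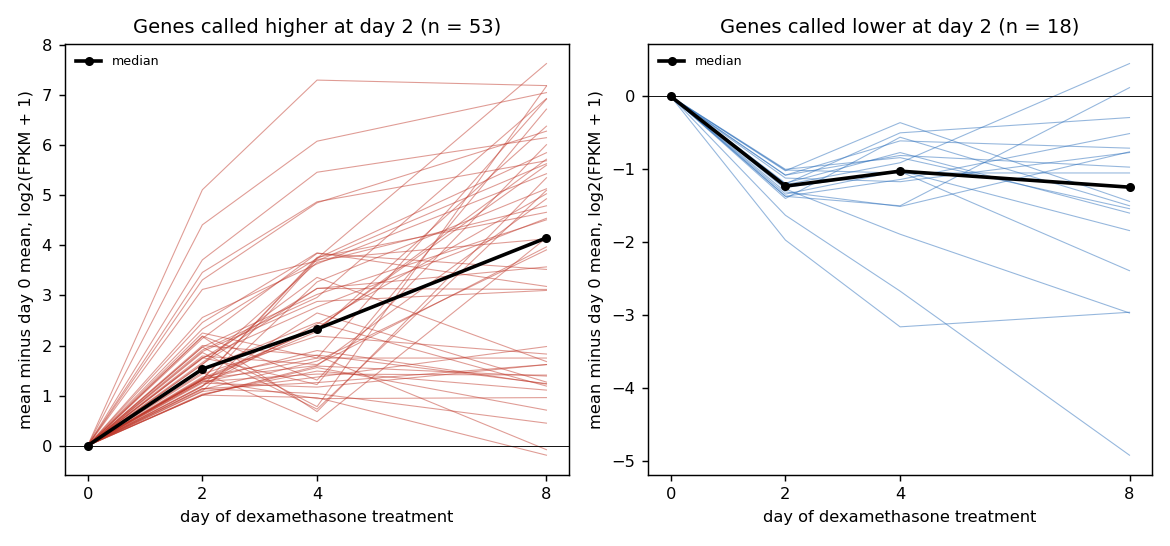
Mean of each day minus the day 0 mean in log2(FPKM + 1) against the day of treatment (0, 2, 4 and 8) for the 53 genes called higher (left, red) and the 18 called lower (right, blue) at day 2, 1 line per gene, with the median in black. The medians of the risen genes are 1.53, 2.33 and 4.15 and those of the fallen genes -1.23, -1.02 and -1.25 at days 2, 4 and 8.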

How the data were processed

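The authors sequenced total RNA of whole inflorescences (stranded libraries), used STAR for alignment to the TAIR10 genome, and took gene expression from RSEM 1.2.22. The deposited values are FPKM per gene and library, already brought to a common distribution. The step that did so, and the strand setting, are not given in the sources used here. The deposited table also holds means per day and the authors' own p-value and FDR columns, none of which were used. Here log2(FPKM + 1) was fitted with limma 3.58.1 (R 4.3.3), with all 4 days in the model, a trended moderated variance, and Benjamini-Hochberg adjustment over the genes that reached 1 FPKM in 2 or more of the 5 libraries. Calls needed an adjusted p under 0.05 and a 2-fold change. Nothing says whether replicates were separate cultures or sowings, so p-values measure the spread between these samples.

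The genes named were the 15 largest called rises and the 15 largest called falls, called members of lists, 12 floral regulators whatever their change, called genes that kept their call without any 1 of the 5 libraries, and the 5 genes per direction that differed most between the day 2 libraries. Other genes, among them list members without a call, were named after their values were seen. Members and lists were chosen with earlier results of these data known, so counts and medians of any list are no separate evidence. The alternatives were other pseudocounts, filters and fold minimums, other sets of libraries in the fit, an unmoderated test, median-ratio rescaling, a replicate block and leaving out each library.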

Additional observations from a re-analysis of the deposited data

How the results depend on the processing

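The counts of called genes depended on which libraries gave the spread. Against 53 rises and 18 falls, fitting only days 0 and 2 gave 98 and 32, and days 0, 2 and 4 gave 103 rises and 27 falls. A test without moderation gave 7 and 1. Leaving out 1 library at a time gave 16 to 76 rises and 3 to 22 falls. Without day 0 replicate 1, 2 or 3 the counts were 18, 20 and 22 rises and 5, 3 and 5 falls, and dropping replicate 1 of day 2 gave 16 and 3. Whether replicate numbers pair the samples could not be decided from days 0 and 2 alone. Deviations of their same-numbered libraries correlated at 0.1272 and 0.004606, but those of the day 2 libraries mirror each other by construction. Over all days, same-numbered libraries ran from -0.2408 to 0.1903. No pairing was used, and a fit with the replicate number as a block gave 36 rises and 7 falls.

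Genes 2-fold higher in both day 2 libraries numbered 157 with a pseudocount of 0.1, 167 with 1e-06 and 244 at a 1.5-fold minimum, against 82, and genes lower in both 56, 64 and 170, against 19. With a single day 2 library the rule is met more easily, by 129 genes upwards and 83 downwards without replicate 1 and by 230 and 131 without replicate 2. Leaving out single libraries turned the log2 change of some genes round. Values without day 2 replicate 1 and without day 2 replicate 2 ran from -0.29 to 3.74 for U3D, from -0.61 to 3.06 for AT3G41979 and AT2G01020, from -0.43 to 2.59 for AT2G01010, from -0.48 to 2.70 for AT2G24592 and from -3.56 to 0.63 for AT2G15292. CAL ran from -0.01 to 0.14 and UFO from -0.16 to 0.13 over the libraries left out, and UFO was 0.00 with the replicate block. The cause was not tested. Depth is unknown, and 15 of the 53 rises had day 0 means under 1 FPKM, where the pseudocount sets the size of the change.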
